A study of Mus musculus with 3 samples.

Results

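The gene group described here is the extracellular metalloproteases of the MMP, ADAM and ADAMTS families, the ADAMTS-like proteins and the TIMP inhibitors. Members were the mRNA genes whose symbols begin with Mmp, Adam, Adamts, Adamtsl or Timp followed by a number, with the highest-count transcript row standing for each gene. The tables held 85 such genes among 46316 gene symbols, and 37 of them averaged at least 1 CPM (a gene's count after all libraries are brought to the same total) over the 3 libraries and are described. Another 26 had at least 1 count but a lower mean, and 22 had 0 counts in all 3 libraries. Of the 37, 34 had 1 CPM or more in each library, while Adam23 and Mmp10 were below 1 CPM in WT and Adam1a in rescue. The members nearest the limit were Mmp10 (11, 17 and 16 counts in WT, KO and rescue) and Adam1a (26, 16 and 8) inside it, and Adam11 (6, 14 and 11) and Mmp23 (12, 5 and 10) outside it.

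RNA was sequenced after 4 days of differentiation from C2C12, a line of immortalised mouse myoblasts whose cells leave the cell cycle and fuse into myotubes. The WT library came from wild-type cells. The KO library came from cells labelled Drp1 knockout, Drp1 being the GTPase that divides mitochondria, and the rescue library from the knockout cells transiently expressing FLAG-Drp1. There was 1 library per group, so no difference has a replicate check, no p-value is given, and every statement describes these 3 libraries. The sources used here do not say how the knockout was made or whether its cells are 1 clone. Depth was nearly equal, at 13894032 gene counts for WT, 13790367 for KO and 13925226 for rescue. Transcripts of Dnm1l, which encodes Drp1, numbered 1823 counts (WT), 1284 (KO) and 1481 (rescue), so its RNA was present in all 3 libraries.

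Matrix metalloproteinases and ADAMTS enzymes are zinc proteases that cut collagens, proteoglycans and other matrix proteins, whereas ADAM proteases are membrane proteins, several of which release the outer parts of growth factors and receptors from the cell surface. They are made as inactive proenzymes, and TIMPs block the active site. In muscle they act in the remodelling of the matrix around myoblasts and in the processing of surface proteins during fusion. RNA measures neither proenzyme activation nor activity.

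KO differed from WT in both directions within the group. Secreted proteases such as Adamts1, Adamts5, Adamts12, Mmp2 and Mmp19 were at least 2-fold higher in KO, while 4 of the 5 ADAMTS-like genes were at least 2-fold lower and the inhibitors Timp2 and Timp3 lay below WT by less than 2-fold. Of the 37 members, 11 (29.7%) were at least 2-fold higher in KO than in WT, beside 5.35% of the 13381 genes with a mean CPM of 1 or more. At least 2-fold lower were 5 members (13.5%), beside 4.07% of all those genes. The 95% counting interval lay wholly above 2-fold for 9 members, beside 2.62% of all genes, and wholly below it for 5, beside 2.02%. These intervals cover counting error only. The median log2 ratio was 0.18 for the members and 0.0005 for all genes, with 23 members above 0 and 14 below. Members had longer transcripts (median 4608 bases) than all genes (3160 bases), and with the trend of the ratio on length removed their median was 0.09. In bulk RNA, fewer cells of a type and less RNA per cell cannot be told apart.

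**Figure D1:**
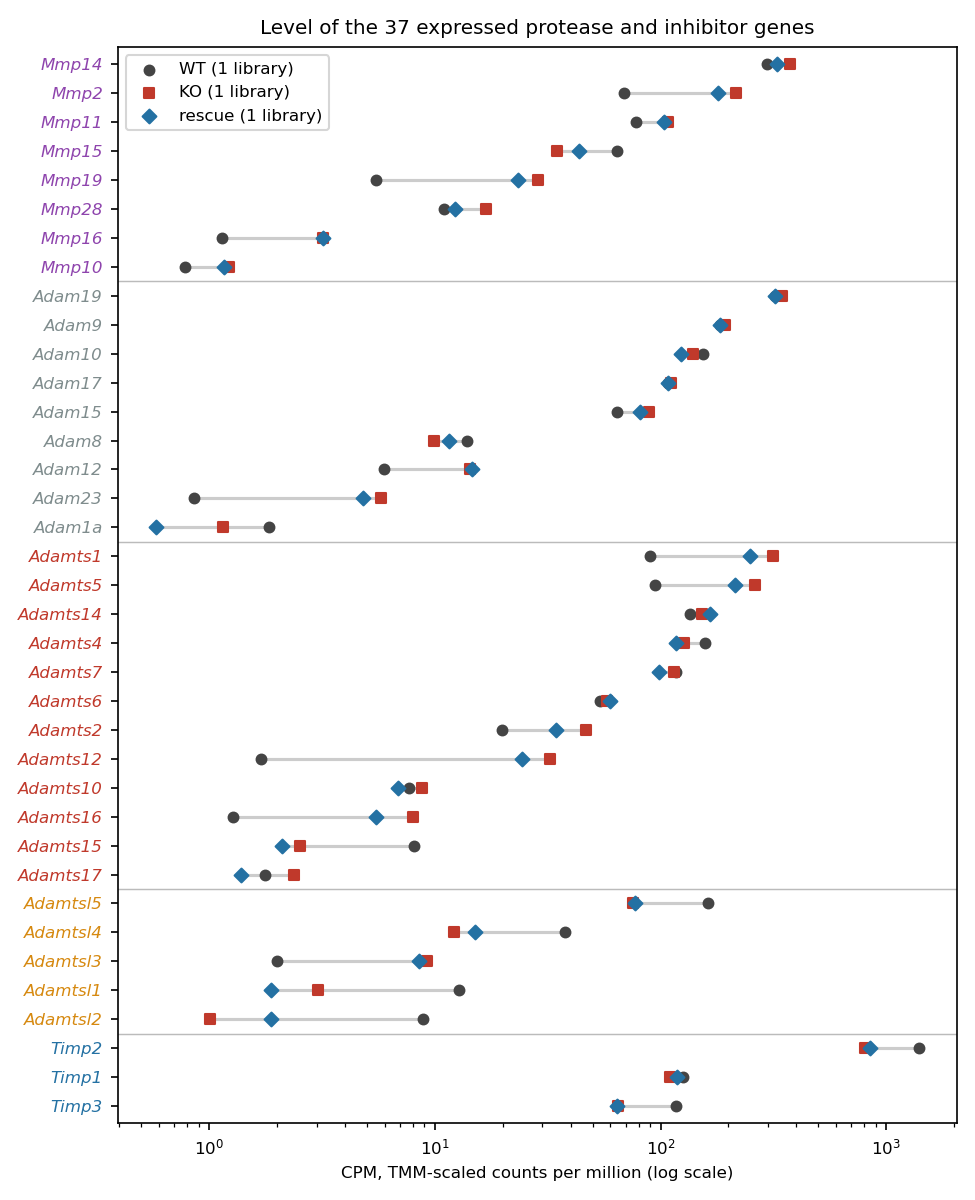
TMM-scaled CPM of each of the 37 members in each library, on a log axis, grouped by family and ordered by mean level. Each point is 1 library and the grey line joins the lowest and the highest. KO and rescue lie close together and away from WT for Adamts12, Adamts1, Mmp2 and Mmp19, all higher, and for Adamtsl5 and Timp2, both lower.

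No member differed 2-fold between rescue and KO, in either direction. Of all genes, 1.3% were 2-fold or more above KO in rescue and 0.575% below it by as much, and 0.306% and 0.0374% had an interval wholly above or below 2-fold. At those shares few or none of 37 genes would be called, so the count of 0 is near the background. The largest values were 0.87 for Adamtsl2 (log2 ratio, interval -0.09 to 1.95) and -0.95 for Adam1a (interval -2.43 to 0.31), both on few counts. The median log2 ratio was -0.13 over the members and 0.003 over all genes, with 26 members below 0 and 11 above, and -0.11 with the length trend removed. Against WT, rescue had 10 members (27.0%) at least 2-fold higher, beside 4.59% of all genes, and 6 (16.2%) at least 2-fold lower, beside 3.06%. The interval lay wholly above 2-fold for 8 members (2.19% of all genes) and wholly below it for 4 (1.39%). The median log2 ratio of rescue against WT was 0.001. The KO and rescue comparisons with WT share the WT library. The KO library enters KO against WT and rescue against KO, and the rescue library enters rescue against KO and rescue against WT. The values of these comparisons are therefore set side by side and not counted as separate support.

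**Figure D2:**
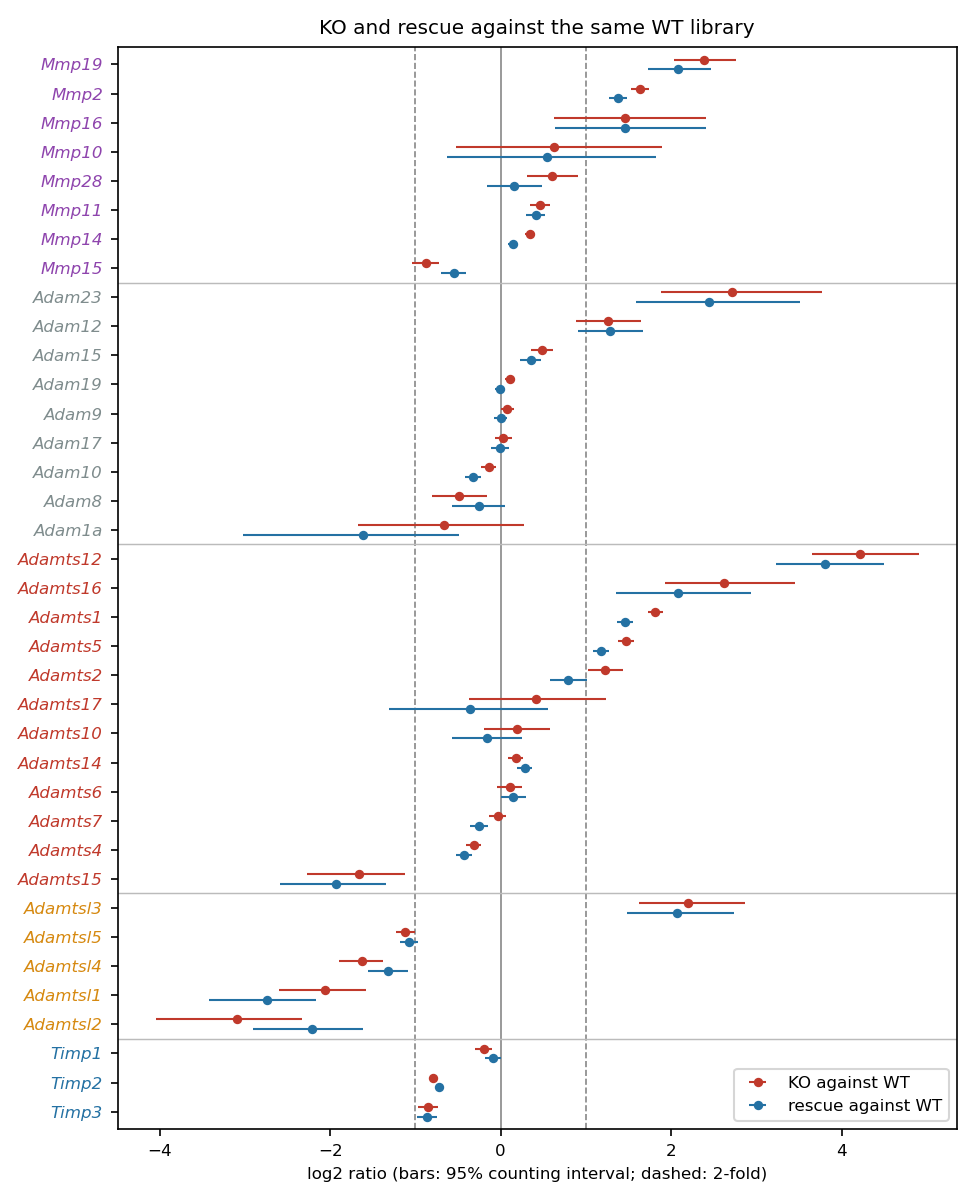
log2 ratio of KO (red) and of rescue (blue) against the same WT library for each of the 37 members, grouped by family. Bars are 95% counting intervals and dashed lines mark 2-fold. The ADAM genes other than Adam23, Adam12 and Adam1a lie between the dashed lines, while 4 of 5 ADAMTS-like genes lie below them.

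Promoters are shown for 6 members with large differences between KO and WT, so that the start regions of genes that were higher and lower can be read beside their values. RefSeq promoters of the mouse build GRCm38.p6, 250 bases before to 50 after a start, were held for 24 of the 37 members. Those without an entry were Adam9, Adam12, Adamts4, Adamts5, Adamts6, Adamts7, Adamts10, Adamts15, Adamts16, Adamtsl1, Mmp2, Mmp16 and Mmp19. Those printed are the 3 highest and 3 lowest ratios among members that had a single promoter and 100 or more counts in the library where they were higher, a choice made after the ratios were seen. Each is written 5' to 3' on the strand of the gene. Capitals mark matches, on either strand, to 5 motifs: the AP-1 letters TGANTCA, the ATF4 and C/EBP composite TGATGNAA, the GC box GGGCGG, the TATA letters TATAAA and the E-box CAGCTG bound by myogenic factors. No 2 matches of different motifs overlapped. The first 3 genes were higher in KO and the last 3 lower.
Adamts12 (chr15:11064523-11064822, plus strand): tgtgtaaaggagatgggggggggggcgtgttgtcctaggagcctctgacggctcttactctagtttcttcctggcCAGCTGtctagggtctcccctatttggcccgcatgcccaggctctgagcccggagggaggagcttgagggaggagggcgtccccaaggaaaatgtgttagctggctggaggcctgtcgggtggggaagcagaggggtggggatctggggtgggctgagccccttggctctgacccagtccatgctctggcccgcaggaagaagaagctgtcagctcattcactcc
Adamtsl3 (chr7:82335444-82335743, plus strand): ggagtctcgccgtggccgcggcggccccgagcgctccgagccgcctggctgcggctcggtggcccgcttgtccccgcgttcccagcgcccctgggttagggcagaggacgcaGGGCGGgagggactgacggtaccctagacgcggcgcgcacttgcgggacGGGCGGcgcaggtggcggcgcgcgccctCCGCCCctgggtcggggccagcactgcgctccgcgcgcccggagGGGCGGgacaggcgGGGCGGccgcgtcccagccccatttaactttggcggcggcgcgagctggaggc
Adamts1 (chr16:85803064-85803363, minus strand): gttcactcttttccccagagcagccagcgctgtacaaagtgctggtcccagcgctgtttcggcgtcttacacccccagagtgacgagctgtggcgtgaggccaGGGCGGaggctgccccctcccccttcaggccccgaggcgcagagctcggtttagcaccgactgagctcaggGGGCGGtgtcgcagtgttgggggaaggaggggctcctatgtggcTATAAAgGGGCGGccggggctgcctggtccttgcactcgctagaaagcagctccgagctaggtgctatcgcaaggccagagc
Adamtsl2 (chr2:27079129-27079428, plus strand): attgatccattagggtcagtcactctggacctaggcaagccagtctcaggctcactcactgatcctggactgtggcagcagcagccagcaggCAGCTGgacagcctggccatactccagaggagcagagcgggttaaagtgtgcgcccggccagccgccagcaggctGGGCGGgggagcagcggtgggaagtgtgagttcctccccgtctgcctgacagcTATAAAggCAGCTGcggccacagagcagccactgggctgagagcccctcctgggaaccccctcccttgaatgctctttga
Adamtsl4 (chr3:95687868-95688167, minus strand): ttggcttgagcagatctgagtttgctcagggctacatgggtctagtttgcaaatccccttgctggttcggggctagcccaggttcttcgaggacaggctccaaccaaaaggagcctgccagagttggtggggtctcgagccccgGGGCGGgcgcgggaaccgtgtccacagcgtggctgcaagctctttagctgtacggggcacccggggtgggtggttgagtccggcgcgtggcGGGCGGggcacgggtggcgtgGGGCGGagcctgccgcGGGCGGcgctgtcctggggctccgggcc
Adamtsl5 (chr10:80348399-80348698, minus strand): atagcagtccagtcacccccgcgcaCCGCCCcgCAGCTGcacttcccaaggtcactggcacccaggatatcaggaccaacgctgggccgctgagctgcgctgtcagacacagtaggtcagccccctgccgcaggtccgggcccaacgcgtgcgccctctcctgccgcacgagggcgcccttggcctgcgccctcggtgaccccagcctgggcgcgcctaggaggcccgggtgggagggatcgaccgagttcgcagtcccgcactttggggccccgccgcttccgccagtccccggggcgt

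Neither AP-1 nor ATF4 and C/EBP letters occurred in these 6 windows. The GC box was found in 5 of them, all but Adamts12, and TATAAA in Adamts1 and Adamtsl2. Over the 24 members with an entry, the AP-1 letters occurred in 2 (8.33%), Adam19 and Mmp10, against 6.39% of all expressed genes and 8.97% of all genes in the table. The composite occurred in 1 (4.17%), Mmp10, against 2.71% and 4.51%. The GC box occurred in 19 (79.2%), against 67.9% and 38.2%. TATAAA occurred in 3 (12.5%), against 8.94% and 15.7%. The E-box letters occurred in 8 (33.3%), against 18.1% and 18.3%, among them Adamts2 and Adamts12, which were higher in KO, and Adamtsl2 and Adamtsl5, which were lower. A match is a run of letters and not a shown binding site.

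Among the MMPs, Mmp14, the membrane-anchored collagenase that activates pro-MMP2, was the most abundant of the family per kilobase of transcript in each library. It had 4150 counts (WT), 5166 (KO) and 4497 (rescue). The 3 libraries lie close together, with KO 1.27-fold above WT (log2 ratio 0.34, interval 0.28 to 0.40). Mmp2, gelatinase A, had 972 counts (WT), 2972 (KO) and 2473 (rescue). Both other libraries were well above WT, KO by 3.11-fold (log2 ratio 1.64, interval 1.53 to 1.74) and rescue by 2.59-fold. Its level per kilobase was 13th of the 37 members in WT and 4th in KO and in rescue. The other gelatinase gene, Mmp9, had 0, 0 and 1 counts.

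Mmp19, a widely expressed secreted MMP, had 77 counts (WT), 397 (KO) and 321 (rescue). WT was the low library, with KO 5.22 times as high (log2 ratio 2.38, interval 2.04 to 2.76) and rescue 4.23 times. Mmp16, a membrane-anchored MMP, had 16 counts in WT and 44 in both KO and rescue. The KO ratio was 2.74-fold (log2 ratio 1.46), but its interval of 0.63 to 2.41 reaches below 2-fold. Mmp15, also membrane-anchored, had 900 counts (WT), 481 (KO) and 602 (rescue). WT was highest and rescue lay between, with a KO log2 ratio of -0.88 (interval -1.04 to -0.72) that does not reach 2-fold. Mmp11, stromelysin 3, had 1094, 1482 and 1425 counts, and Mmp28, epilysin, 155, 232 and 170, so KO was 1.38-fold and 1.52-fold above WT. By contrast the 10 Mmp genes that lie in a row on chromosome 9, which include the interstitial collagenases and stromelysins, held together 28 counts (WT), 21 (KO) and 23 (rescue). Of these, 4 had no count in any library, and only Mmp10 is among the 37.

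Most of the 9 expressed ADAM genes lay close to WT. Adam19 (meltrin beta), the most abundant of the family, had 4530 counts (WT), 4786 (KO) and 4408 (rescue). Adam9 had 2569, 2664 and 2521. Adam17, the main shedding enzyme for tumour necrosis factor and many ligands of the epidermal growth factor receptor, had 1520, 1528 and 1482. These 3 genes were within 1.08-fold of WT in both KO and rescue. Adam10, which cuts Notch receptors, had 2165 counts (WT), 1931 (KO) and 1700 (rescue), a rescue log2 ratio of -0.32 against WT (interval -0.41 to -0.23). Adam15 had 897, 1232 and 1122 counts and was 1.40-fold higher in KO, and Adam8 had 195, 137 and 160.

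Of these 9 genes, 2 were at least 2-fold higher in KO and none lower, beside 5.35% and 4.07% of all genes. Adam12, meltrin alpha, which is expressed by fusing myoblasts, had 84 counts (WT), 198 (KO) and 201 (rescue). KO was 2.39-fold above WT (log2 ratio 1.26) and rescue 2.43-fold, though the KO interval of 0.89 to 1.65 reaches below 2-fold. Adam23, a member without protease activity known from the nervous system, had 12 counts (WT), 80 (KO) and 66 (rescue). WT was again the low library, with a KO log2 ratio of 2.71 (interval 1.88 to 3.77). Adam1a had 26, 16 and 8 counts, so rescue was 3.06-fold below WT, though the log2 interval of -3.03 to -0.49 reaches inside 2-fold. Its exons overlap those of Mapkapk5 on the same strand, so its reads are uncertain.

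Among the ADAMTS genes of the proteoglycan-cleaving clade, Adamts1 and Adamts5 were higher in KO and Adamts15 and Adamts8 lower. Adamts1 had 1264 counts (WT), 4367 (KO) and 3414 (rescue). KO was 3.52-fold above WT (log2 ratio 1.81, interval 1.72 to 1.91), rescue was 2.75-fold above it, and the rescue value was below KO by a log2 ratio of -0.35 (interval -0.42 to -0.29). Adamts5, the principal aggrecanase of mouse cartilage, had 1332, 3633 and 2947 counts. KO was 2.78-fold above WT (log2 ratio 1.47, interval 1.38 to 1.56) and rescue 2.26-fold. These are neighbouring genes on chromosome 16. Adamts4, also an aggrecanase, differed less: it had 2217 counts (WT), 1749 (KO) and 1611 (rescue), a KO log2 ratio of -0.32.

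Another neighbouring pair of the same clade, Adamts15 and Adamts8 on chromosome 9, was lower. Adamts15 had 114 counts (WT), 35 (KO) and 29 (rescue), with KO 3.17-fold below WT (log2 ratio -1.66, interval -2.27 to -1.12). Adamts8, at a mean of less than 1 CPM, had 25 counts in WT and 0 in both KO and rescue. With the 0 set to a floor of 3 counts, it was 8.19-fold lower in KO and 8.17-fold lower in rescue. Its log2 counting intervals against WT reach up to -2.63 in KO and -2.62 in rescue. In these 2 pairs of neighbours, both genes of a pair thus lay on the same side of WT. Whether neighbouring members agree more often than other genes was not tested. Summed over the 7 genes of the clade, counts were 4958 (WT), 9785 (KO) and 8002 (rescue), a KO ratio of 2.01-fold (log2 ratio 1.01, interval 0.96 to 1.06). Adamts1 and Adamts5 make up most of that sum.

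Adamts12, which cleaves cartilage oligomeric matrix protein, had the largest ratio of all 37 members. It had 24 counts (WT), 448 (KO) and 335 (rescue). WT was the low library and both others were far above it, KO by 18.6-fold (log2 ratio 4.22, interval 3.66 to 4.91) and rescue with a log2 ratio of 3.80. Adamts16 had 18, 111 and 76 counts, a KO ratio of 6.13-fold (log2 ratio 2.62, interval 1.92 to 3.46). Of the procollagen N-proteinases, Adamts2 had 280 counts (WT), 646 (KO) and 475 (rescue). Rescue lay between the others, with KO 2.35-fold above WT (log2 ratio 1.23, interval 1.03 to 1.44) and rescue 1.73-fold. The more abundant Adamts14, which does the same reaction, had 1902, 2113 and 2271 counts, so it varied little. Adamts6, Adamts7, Adamts10 and Adamts17 had KO log2 ratios between -0.03 and 0.42, and each lay within 2-fold of WT in rescue too.

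The ADAMTS-like proteins share the ancillary domains of ADAMTS enzymes but have no protease domain, and several bind fibrillin microfibrils. Of the 5, 4 were at least 2-fold lower in KO and 1 higher, beside 4.07% and 5.35% of all genes. Adamtsl5 was the most abundant, with 2290 counts (WT), 1038 (KO) and 1065 (rescue). Both other libraries were at less than 50% of WT, KO with a log2 ratio of -1.12 (interval -1.22 to -1.01) and rescue with -1.08 (interval -1.18 to -0.97). It was 4th of the 37 members per kilobase in WT and 13th in KO and in rescue. Adamtsl4, whose human gene is mutated in inherited lens displacement, had 530 counts (WT), 168 (KO) and 208 (rescue), a KO log2 ratio of -1.63 (interval -1.89 to -1.38). Adamtsl2, whose human gene is mutated in geleophysic dysplasia, had 125, 14 and 26 counts, a KO log2 ratio of -3.09 (interval -4.05 to -2.33), the lowest of the members. Adamtsl1 had 180, 42 and 26, a KO log2 ratio of -2.06 (interval -2.59 to -1.58). Adamtsl3 was the exception, with 28 counts (WT), 128 (KO) and 117 (rescue), 4.59-fold higher in KO (log2 interval 1.62 to 2.86). Summed over the 5 genes, counts were 3153 (WT), 1390 (KO) and 1442 (rescue), a KO log2 ratio of -1.16 (interval -1.25 to -1.06).

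Among the inhibitors, Timp2, which blocks MMPs and at low levels also bridges pro-MMP2 to MMP14, was the most abundant of all members. It had 19568 counts (WT), 11120 (KO) and 11633 (rescue). WT was clearly the highest, and KO and rescue were close, with a log2 ratio of -0.79 for KO against WT (interval -0.82 to -0.76), which is 1.73-fold lower, and of -0.72 for rescue. Of the counts of all members, Timp2 made up 35.4% (WT), 20.6% (KO) and 23.1% (rescue). Timp3, the matrix-bound TIMP that also inhibits ADAM17 and the aggrecanases, had 1640 counts (WT), 893 (KO) and 884 (rescue). KO and rescue did not differ beyond counting error, and the log2 ratio of KO against WT was -0.85 (interval -0.97 to -0.73), or 1.80-fold lower. Its exons overlap those of Syn3 on the opposite strand, but Syn3 had 0, 1 and 2 counts. Timp1 had 1769, 1513 and 1631 counts, a KO log2 ratio of -0.20 (interval -0.30 to -0.10) that was -0.004 with the length trend removed. Timp4 had 7, 5 and 6 counts. None of the 3 expressed TIMPs reached 2-fold in any comparison.

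Summed per kilobase of transcript, the families differed in direction. MMP genes together stood at 155 CPM per kilobase in WT, 236 in KO and 210 in rescue. ADAMTS genes stood at 107, 180 and 155, and ADAM genes at 178, 191 and 178. TIMP genes stood at 551 in WT, 360 in KO and 380 in rescue. The summed TIMP level was therefore 1.25 times that of the MMP, ADAM and ADAMTS genes together in WT, 0.592 times in KO and 0.701 times in rescue. Timp2 stood at 4.95 times Mmp14 per kilobase in WT, 2.26 times in KO and 2.71 times in rescue. The RNA of all members together was 3938 CPM in WT, 3911 in KO and 3654 in rescue, so the total differed less than its make-up. These sums weigh abundant genes most, and they say nothing of protein amounts.

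**Figure D3:**
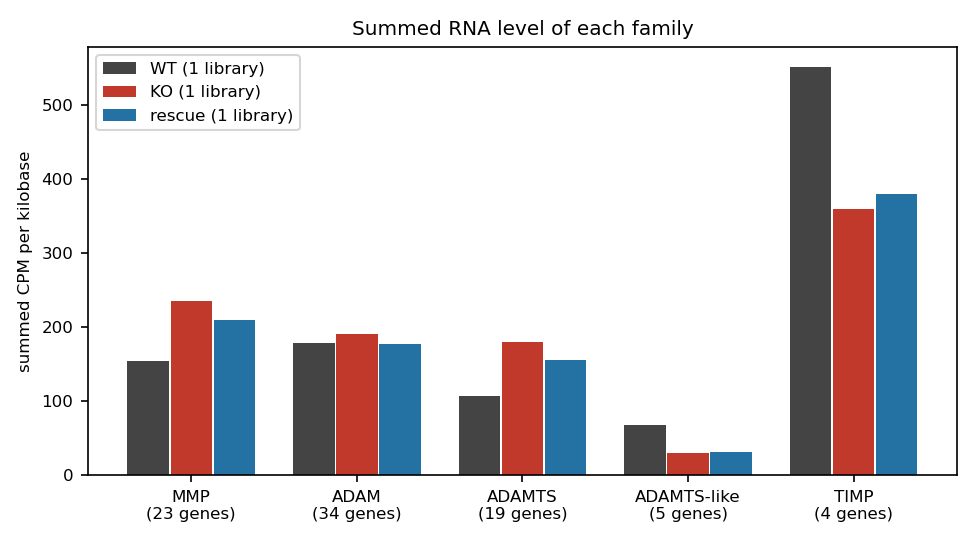
Summed CPM per kilobase of each family over all its matching genes, by library (1 bar per library, axis from 0). The TIMP bar is 551 in WT against 360 in KO and 380 in rescue, while the MMP and ADAMTS bars are higher in KO and rescue than in WT.

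Genes that act on or with these proteases were also read from lists, whose counts of 2-fold genes stand beside the same 5.35% higher and 4.07% lower of all genes in KO against WT. Of 9 expressed inhibitors of other classes, none was 2-fold higher in KO and 2 were lower: Serpine2, protease nexin 1 (52, 5 and 11 counts), and Serping1, the C1 inhibitor (701, 177 and 259). The median log2 ratio of the 9 was 0.47, and Serpinf1, pigment epithelium-derived factor, lay just under 2-fold above WT (0.93). In rescue against KO, Serpine2 alone of the 9 reached 2-fold, being higher, beside 1.3% of all genes. Its log2 interval of -0.50 to 3.02 rests on few counts. Reck, a membrane-anchored MMP inhibitor, had 45, 72 and 60 counts. Of 9 expressed genes of the plasminogen system and proprotein convertases, only Pcsk6 reached 2-fold in KO, being lower (32, 4 and 7), and Furin, the convertase that activates many of these proenzymes, had 1947, 2077 and 1898, while the median log2 ratio of the 9 was -0.31. Of 12 other genes of matrix and surface proteolysis, Mme (10, 267 and 161) and Fap (15, 47 and 32) were at least 2-fold higher in KO and Pcolce2 (465, 221 and 282) at least 2-fold lower. The other 9 lay within 2-fold of WT on both sides, from a log2 ratio of -0.72 (Htra3) to 0.63 (Ece1). Among 15 regulators and clearance genes none reached 2-fold in KO against WT. Lrp1, which clears protease and inhibitor complexes, had 15223, 25085 and 16548 counts, a KO ratio of 1.68-fold. Bsg, an inducer of MMPs, had 9317, 8617 and 11361.

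Substrates of the proteases were measured as well, beside the same 5.35% higher and 4.07% lower of all genes in KO against WT. Of 18 expressed ADAM10 and ADAM17 substrates, 4 were at least 2-fold higher in KO and none lower: Jag1 (115, 296 and 219 counts), Nrg1 (98, 230 and 199), Il6ra (52, 121 and 81) and Btc (10, 24 and 22). Btc rests on few counts, with a log2 interval of 0.17 to 2.52, and the median log2 ratio of the 18 was 0.06. In rescue against KO, Ereg alone of the 18 reached 2-fold, being lower (49 counts in KO, 24 in rescue), beside 0.575% of all genes. Its log2 interval of -1.80 to -0.29 reaches inside 2-fold. Of 11 partners of the 2 enzymes, Tspan33 alone reached 2-fold, being lower in KO (56, 27 and 47). Of 14 expressed matrix substrates, 2 were at least 2-fold higher in KO, namely Col1a1, the main chain of type I collagen, and Vcan, the proteoglycan versican that Adamts1 and Adamts5 can cut. The median log2 ratio of the 14 was 0.80, and 11 others lay above WT by less than 2-fold, such as Fn1, fibronectin (log2 ratio 0.95), and Col3a1 (0.87). Vcan had 3791 counts (WT), 9976 (KO) and 6825 (rescue), a KO ratio of 2.68-fold (log2 ratio 1.42, interval 1.37 to 1.48). Decorin (Dcn) was the 1 gene at least 2-fold lower, with 5177, 1787 and 1792 counts.

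**Figure D4:**
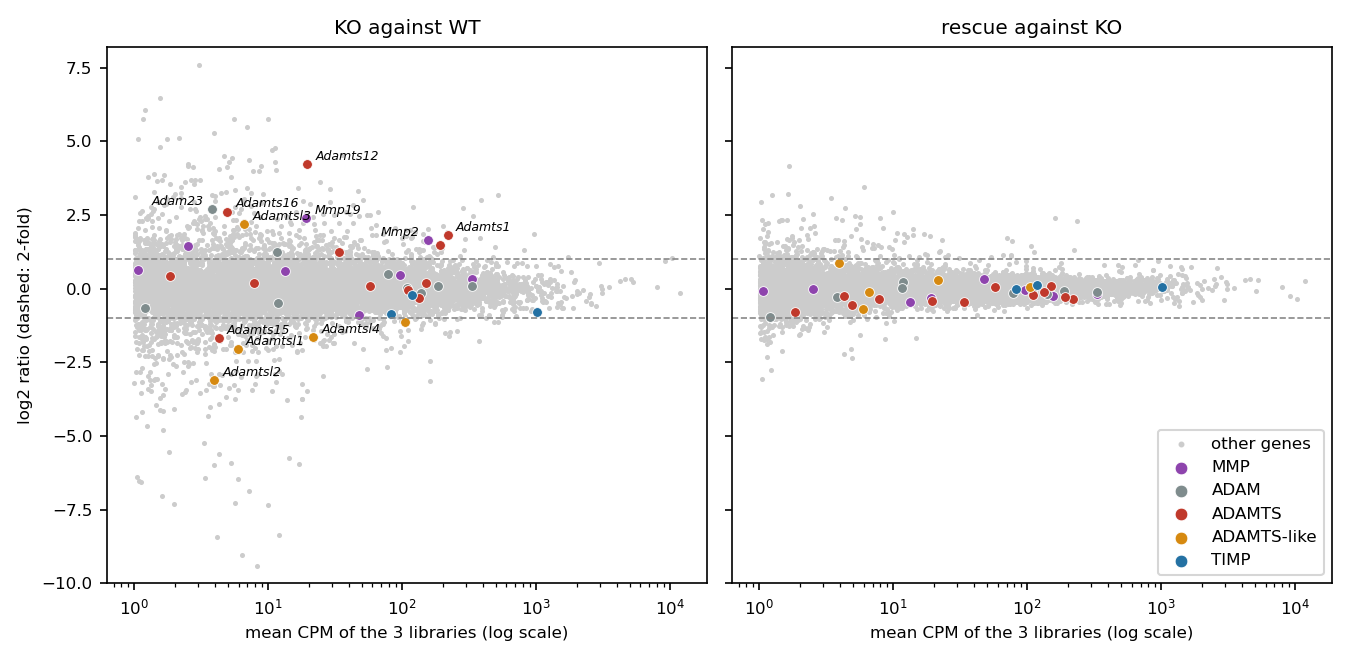
Mean CPM (log axis) against log2 ratio of KO against WT (left) and rescue against KO (right), with all other genes of mean CPM 1 or more in grey and the 37 members in colour by family. Members with log2 ratios of at least 1.6 in either direction are named in the left panel. No member lies beyond the dashed 2-fold lines in the right panel.

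Marker lists of cell types a myoblast culture could hold were read beside these results. All 10 myotube genes were expressed in all 3 libraries, as the label of differentiated C2C12 cells implies. Of them, 4 were at least 2-fold lower in KO than in WT (4.07% of all genes): Myh4, Myh1, Mb and Ckm (log2 ratios -3.78, -3.13, -1.78 and -1.60). The same 4 were at least 2-fold higher in rescue than in KO (1.3% of all genes). Acta1, Myh3 and Myog lay above WT in KO by less than 2-fold (log2 ratios 0.22, 0.33 and 0.47). Tnnc2 and Tnnt3 lay below it by less than 2-fold (-0.53 and -0.22), and Ttn was at 0.008. The median log2 ratio of the 10 in KO against WT was -0.38. Their summed level, in which Acta1 and Myh3 weigh most, was about 12570 CPM in WT, 13580 in KO and 17050 in rescue. Summed myoblast markers were 3130 CPM in WT, 2340 in KO and 2368 in rescue. Itga7 (30926, 26653 and 26608 counts) made up most of that sum. Cdh15 (9651, 2756 and 3318), Myf5 (949, 617 and 570) and Myod1 (1476, 990 and 1174) were also lower in KO than in WT. Vcam1 (954, 1267 and 937) was higher in KO, as was Pax7 on few counts (3, 8 and 4). Summed fibroblast markers were 160, 127 and 120 CPM. Among them Tcf21 was at 0 in all libraries and Thy1 at 0, 1 and 0 counts, whereas Pdgfra had 112, 240 and 191 and Dpt 4, 24 and 24. Pdpn, which makes up most of the sum, had 2070, 1462 and 1405 counts, Col15a1 had 21, 0 and 0, Lum 9, 0 and 1, and Pi16 27, 25 and 25. The macrophage list summed to 2.07, 4.42 and 3.12 CPM, mostly from Cd68 (22, 55 and 42 counts), and the endothelial list to 1.28, 0.580 and 0.799 CPM. The macrophage genes Ptprc, Adgre1, C1qa and C1qb, the endothelial gene Pecam1 and the adipocyte gene Adipoq had 0 counts in every library. Of the neuron list, Snap25 and Rbfox3 were at 0, Gap43 (374, 52 and 77 counts) and Tubb3 (1050, 451 and 574) were lower in KO, and Stmn2 (330, 844 and 992) was higher. Of the cartilage and bone list, Acan, Alpl and Ibsp were at 0 and Spp1 had 7772, 9234 and 8401 counts. The part of these marker differences in the protease values was not tested.

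The transcript rows of a gene share exons and much of their counts, so rows are not separate measurements. Of the 37 members, 10 had 1 mRNA row and 27 had more. Among the latter, the row with fewest counts held 91.1% of the counts of the fullest row at the median. The largest spread of KO log2 ratios among the rows of 1 gene was 0.35, for Adamts16, and only the rows of Adamts7 differed in sign (-0.09 to 0.07). Exons of Mmp19 share 789 bases with Tmem198b, and those of Adam15 share 1263 bases with 4731419I09Rik, each on the opposite strand. Exons of other members, such as Adam19 and Mmp28, overlap other genes too. The sources used here do not say how reads in such overlaps were assigned.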

How the data were processed

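RNA from 3 C2C12 libraries was extracted with TRIzol and sequenced with a DNBSEQ-G400RS kit, per the labels' protocols. Reads were processed by the authors with featureCounts 2.0.0, HISAT2 2.2.1 and cutadapt 1.9.1 on build GRCm39, per the submitters' processing notes. The sources used here do not give their settings, strand mode or treatment of multimapping reads. Each deposited table held 139023 transcript rows. The deposited count column held unnormalized whole counts. The deposited RPKM column held counts per kilobase scaled to the table total, and the deposited TPM column held length-scaled counts at a fixed sum, per the file headers; both were recomputed from the counts (largest differences 4.98e-06 and 4.4e-06) and not used further.

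The row with the highest summed count stood for a gene, and members used mRNA rows. TMM factors from edgeR 4.0.16 in R 4.3.3 (1.01, 1.00 and 0.989) scaled the counts. Log2 ratios used 0.5 added to each count, with exact conditional (Clopper-Pearson) 95% counting intervals. Genes with a mean CPM of 1 or more were kept, and a called gene differed at least 2-fold. Alternatives were library totals, DESeq2 1.42.0 size factors, no filter, summed rows, 2 added to each count, and a lowess length trend removed. The ratio and interval functions were tested on simulated data. Genes described in full are members at least 2-fold apart in any pair and the 4 Timp genes; the 10 highest per kilobase were given by level, up to 6 genes of each other list by a 2-fold ratio, and Furin, Reck, Bsg, Lrp1 and Syn3 whatever their values. Other members and the markers were named after their values were seen. The members and lists were chosen with earlier results of these data known. Promoters came from RefSeq (GRCm38.p6), gene order from RefSeq, and exon overlaps from GENCODE M21 (GRCm38); no coordinates were converted.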

Additional observations from a re-analysis of the deposited data

How the results depend on the processing

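With 1 library per group no replicate could be left out. No paired analysis was possible because there was 1 library per group. For single genes at or beyond 2-fold, all 192 values under the alternatives run were still at least 2-fold. Leaving out the filter cannot change the ratio of a single gene, so its values in this tally were fixed in advance. Library totals and DESeq2 size factors shift all genes of a comparison by the same small amount. Of 378 single-gene values under alternatives, 373 stayed inside the counting interval of the gene's main value and 5 fell outside it. All 5 came with the length trend removed. For rescue against KO they were Adamts5 (-0.13), Adamts1 (-0.28) and Timp1 (-0.11, from 0.11). For KO against WT they were Adamts5 (1.31) and Timp1 (-0.004). Genes of few counts have wide intervals, so they could shift further and still be among the 373. With that trend removed, rescue against KO went from -0.13 to 0.03 for Adamtsl3 and from -0.42 to -0.24 for Adamts12. Both values stayed inside their intervals. Without the low-count filter, over the 63 members with at least 1 count, 20 were 2-fold lower in KO (5 with the filter) and 19 in rescue against WT (6 with it). At least 2-fold higher were 12 in KO (11 with the filter) and 13 in rescue against WT (10 with it). Rescue against KO had 4 higher and 2 lower (0 and 0 with the filter). The shares of all genes without the filter were not computed, so these counts have no background beside them. The median log2 ratio was then -0.1396 in KO against WT, 0.0029 in rescue against KO and -0.2128 in rescue against WT, each on the other side of 0. These rest on genes of few counts, whose ratios depend on the added count. With libraries at 0 set to 3 counts, and members at 3 counts or fewer in both libraries left out, the medians were 0.08, -0.12 and -0.09. The median of rescue against WT, 0.001, was -0.0304 under library totals and -0.0174 under DESeq2 size factors. Depth limits members under about 50 counts, such as Mmp16, Mmp10 and Adam1a.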
